A study of Mus musculus with 3 samples.

Results

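The genes that add, protect and remove the acetyl mark of cohesin, and those that cut cohesin at anaphase, were followed through the RNA of wild type (WT) mouse embryo fibroblasts (MEFs). They are Esco1 and Esco2, which encode the acetyltransferases of the cohesin subunit SMC3, Cdca5, which encodes Sororin, Hdac8, which encodes the SMC3 deacetylase, Espl1, which encodes separase, and Pttg1, which encodes securin. These 6 genes were chosen by name out of 21782 genes in the count table, by a rule that uses no measured value. Earlier results of these data were known, however, when the genes and the lists used below were chosen. RNA-seq of polyA+ RNA was available for 3 WT MEF clones, with 1 library per clone. The cells came from E12.5 embryos, grew in DMEM with 20% serum and were collected without synchronization. The labels name no treatment and no other genotype for these libraries, so there is 1 condition and no comparison between conditions. All values below compare clones, and a clone cannot be told apart from its culture or its library. Totals were 22594316 to 25261357 counts per library, and each of the 6 genes had more than 10 counts in each clone.

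Cohesin holds sister chromatids together from their synthesis in S phase until anaphase. During replication, ESCO2 acetylates SMC3, while ESCO1 does so throughout the cell cycle, and the acetylated complex can bind Sororin, which counteracts the releasing factor WAPL. At the onset of anaphase the APC/C ubiquitin ligase marks securin for destruction, separase becomes free to cleave the cohesin subunit RAD21, and HDAC8 then removes the acetyl group so that SMC3 can be used again. Transcripts of many genes of replication and mitosis rise and fall with the cycle, and in an asynchronous culture their level therefore also depends on how many of the cells are dividing. In bulk RNA, fewer cells that express a gene and less RNA of it per cell cannot be told apart.

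The bases in front of the start of Cdca5 and of Espl1 are shown, as both genes followed the S phase and G2/M genes between clones and both hold the letters TTTGAA. Hdac8, not shown, also holds TTTGAA but did not follow those genes. Whether the letters go with the pattern between clones was not tested. These letters are one form of the CHR element, known from promoters of mitotic genes. The sequences are those of RefSeq on GRCm38.p6, on the strand of the gene, and end with the base before the RefSeq start. Capitals mark TTTGAA and, in Espl1, ATTGG, which is CCAAT on the other strand.
Cdca5, chr19:6085067-6085096, plus strand: gcaaggcgggcaaTTTGAAcgTTTGAAgca
Espl1, chr15:102296233-102296292, plus strand: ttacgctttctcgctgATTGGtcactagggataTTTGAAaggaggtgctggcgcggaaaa

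In Cdca5 the letters TTTGAA occurred at positions -17 to -12 and again at -9 to -4, counted so that -1 is the last base before the start. In Espl1 they occurred at -27 to -22, and CCAAT lay on the other strand at -44 to -40. The GENCODE annotation sets the first base of Cdca5 114 bases and that of Espl1 27 bases further upstream, so by that annotation these copies of TTTGAA lie in the first exon. In windows from 250 bases before to 50 bases after each RefSeq start, TTTGAA or TTCGAA was found on either strand in 19.2% of 32851 mouse promoters, and in 37 of 51 promoters (72.5%) of the list of G2/M genes used below. CCAAT was found in 37.4% of all promoters and in 39 of the 51 (76.5%). In promoters of the list of S phase genes used below, CCAAT was also common, in 22 of 33 (66.7%). TTTGAA or TTCGAA was found in 6 of these 33 (18.2%), near the share of all promoters. The letters bound by E2F factors were searched as TTCCCGC, then as TTCGCGC, then as TTGGCGC and then as TTGCCGC. At least 1 of these was found in 9.57% of all promoters, in 19.6% of those of the G2/M genes and in 23 of 33 (69.7%) of those of the S phase genes. Cdca5 held TTGGCGC in the 50 bases after its start and no CCAAT, and Espl1 held none of the E2F letters. In Hdac8, TTTGAA was present at -129 to -124 and, on the other strand, at -244 to -239, with CCAAT at -172 to -168 and an overlapping copy on the other strand at -169 to -165. The GENCODE start of Hdac8 lies 201 bases before the RefSeq start, so all of these except the copy of TTTGAA at -244 to -239 lie inside the gene by that annotation. The window of Pttg1 held none of these letters, but the GENCODE start of Pttg1 lies 270 bases before the RefSeq start, so that the bases in front of the GENCODE start were not searched. A match in letters is a description and not a site of binding. Promoters could be matched for 4 of the 6 genes, which leaves out Esco1 and Esco2.

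Counts of Esco1 in clones 1, 2 and 3 were 179, 193 and 240. After scaling to library size these are 7.20, 8.56 and 9.50 CPM (counts per 1000000 counts), with a mean of 8.42 ± 1.15 CPM (SD, n = 3 clones). Clone 3 was 1.32-fold above clone 1, with an exact 95% interval of 1.08 to 1.61 for the counting error of the ratio. For each gene these intervals set the highest clone against the lowest one. Spread was tested in both of the following ways for every gene. The counting test, a chi-square test of the counts of the 3 clones against the scaled library sizes, asks whether clones differ by more than counting error. The overdispersed test uses the spread of a typical gene between these clones, a biological coefficient of variation of 0.187 in addition to counting error, and asks whether a gene varies more than that. Both p-values were adjusted by Benjamini-Hochberg over the 12218 genes whose counts reached 10 in every clone. Esco1 differed between clones in the counting test (adjusted p = 0.0321) and did not pass the overdispersed one (adjusted p = 1.0). Its range of log2(CPM + 1) over the clones was 0.36, wider than that of 63.3% of the genes tested. Without clone 1 or without clone 3, Esco1 no longer passed the counting test (adjusted p = 0.452 and 0.154).

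Esco2 was the gene of the group with the widest spread. Its counts were 72, 161 and 147 in clones 1, 2 and 3, or 2.90, 7.14 and 5.82 CPM, with a mean of 5.29 ± 2.17 CPM (SD, n = 3 clones). Clone 1 was far below the other clones, and clone 2 was 2.46-fold above it (1.85 to 3.30). The range of log2(CPM + 1) over the clones was 1.06, wider than that of 96.2% of the genes tested. The difference passed the counting test (adjusted p = 1.82e-09). In the overdispersed test the unadjusted p was 0.0192, the only one of the group under 0.05, and the adjusted p was 0.398. Between clones 2 and 3 alone, the range was 0.26 and did not pass the counting test (adjusted p = 0.166), so the call rested on clone 1. Esco2 lies on chromosome 14 of GRCm38 (65819038 to 65833994, minus strand).

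Cdca5 followed the same order of clones. It had 134, 251 and 218 counts in clones 1, 2 and 3, or 5.39, 11.1 and 8.63 CPM, with a mean of 8.39 ± 2.88 CPM (SD, n = 3 clones). Clone 2 was 2.06-fold above clone 1 (1.67 to 2.56), and clone 3 lay between them. The range of 0.92 on the log2 scale was wider than that of 94.5% of the genes tested, and Cdca5 passed the counting test (adjusted p = 2.46e-10) but not the overdispersed one (adjusted p = 0.709). Clones 2 and 3 also differed from each other by 0.33 (adjusted p = 0.0220 in the counting test without clone 1). Cdca5 lies on chromosome 19 (6084983 to 6091777, plus strand).

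Hdac8 was the only gene of the group that did not pass the counting test (adjusted p = 0.143). It had 172, 139 and 137 counts, or 6.92, 6.16 and 5.42 CPM, with a mean of 6.17 ± 0.749 CPM (SD, n = 3 clones). Its highest value was in clone 1, where Esco2 and Cdca5 were lowest, and it was 1.28-fold above the value in clone 3 (1.01 to 1.61). The unadjusted p of Hdac8 in the counting test was 0.102, so its clones could not be told apart from counting error before adjustment either. The interval just excludes 1, but it sets the highest clone against the lowest, picked by their values. The range of 0.30 was wider than that of 54.8% of the genes tested. Hdac8 lies on the X chromosome (102284639 to 102505359, minus strand). Of the other class I histone deacetylase genes, Hdac1 had a mean of 103 CPM, Hdac2 85.8 CPM and Hdac3 63.1 CPM, and their median deviations from the mean of the clones were -0.06, 0.01 and 0.08 in clones 1, 2 and 3. Of these, Hdac1 and Hdac2 passed the counting test with clone 1 lowest, and Hdac3 did not (adjusted p = 0.157).

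Espl1 had the most counts of the group, namely 663, 1039 and 1014 in clones 1, 2 and 3. These are 26.7, 46.1 and 40.1 CPM, with a mean of 37.6 ± 9.94 CPM (SD, n = 3 clones). Clone 2 was 1.73-fold above clone 1 (1.56 to 1.91), and with the higher counts this gave the smallest adjusted p of the group in the counting test (3.20e-27). Clones 2 and 3 differed by 0.19 on the log2 scale (adjusted p = 0.00784 in the counting test without clone 1). Over all 3 clones, Espl1 had a range of 0.77, wider than that of 91.3% of the genes tested. The overdispersed test did not call Espl1 (adjusted p = 1.0). Espl1 lies on chromosome 15 (102296266 to 102324357, plus strand).

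Pttg1, which encodes the inhibitor of separase, ran the other way. Its counts were 314, 212 and 251 in clones 1, 2 and 3, or 12.6, 9.40 and 9.94 CPM, with a mean of 10.7 ± 1.73 CPM (SD, n = 3 clones). Clone 1 was 1.34-fold above clone 2 (1.13 to 1.61), the reverse of Espl1, and the difference passed the counting test (adjusted p = 0.00234) but not the overdispersed one (adjusted p = 1.0). Over all 3 clones, Pttg1 had a range of 0.39 on the log2 scale, wider than that of 67.8% of the genes tested. Clones 2 and 3 differed by 0.07 (adjusted p = 0.705 in the counting test without clone 1), so the call of the counting test rested on clone 1. Pttg1 lies on chromosome 11 (43420250 to 43426251, minus strand).

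**Figure D1:**
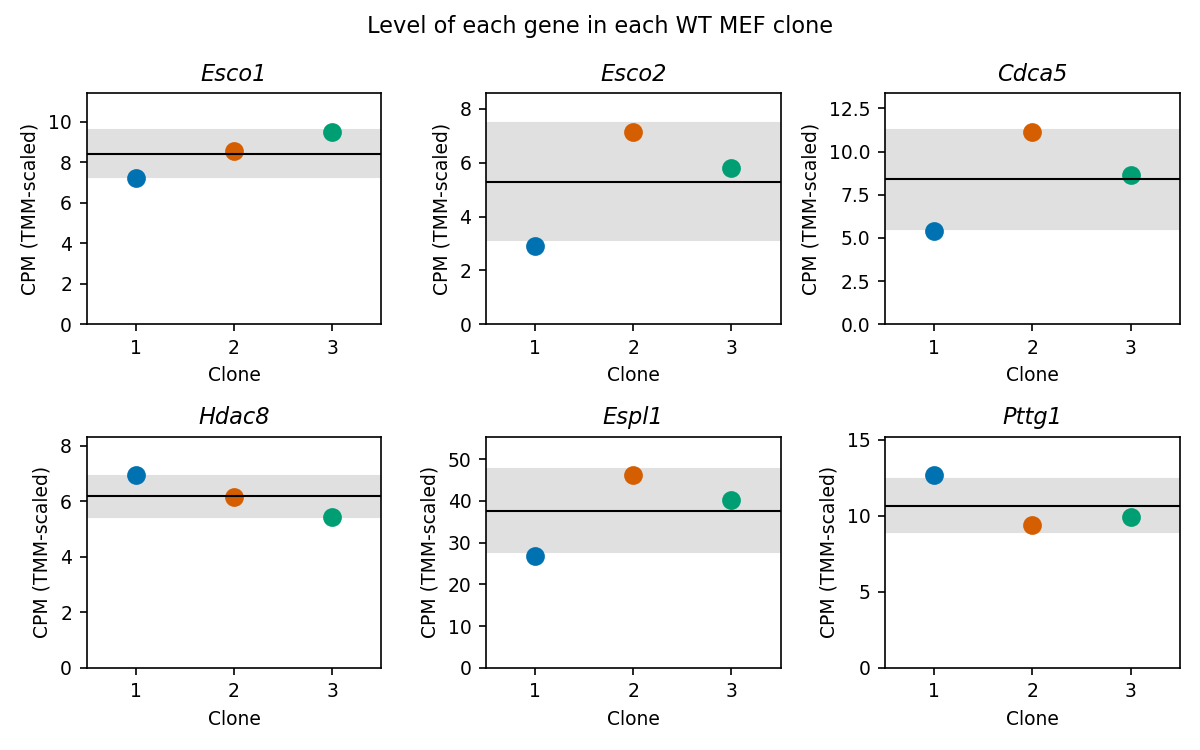
Level of each gene in CPM (vertical axis, linear, from 0) in clones 1, 2 and 3 (horizontal axis), with the mean as a line and 1 SD on either side as a grey band. Esco2, Cdca5 and Espl1 were lowest in clone 1 and highest in clone 2, Esco1 was lowest in clone 1 and highest in clone 3, and Hdac8 and Pttg1 were highest in clone 1.

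In all, 5 of the 6 genes passed the counting test, where 62.5% of all genes tested did, so passing it is common in these clones. Of the 6, Esco1, Esco2, Cdca5 and Espl1 were called with clone 1 lowest, against 27.1% of all genes tested. Pttg1 was called with clone 1 highest, against 23.8%. The overdispersed test called 0 of the 6 genes and 2.58% of all genes tested. At an unadjusted p under 0.05 it gave 1 of the 6 genes, Esco2, and 880 of the 12218. Without clone 1 the counting test called 2 of the 6 genes, Cdca5 and Espl1, and 3893 of all 12294 genes then tested, a similar share. Without clone 2 the overdispersed test called 9 genes in all in place of 315. All of these tests compare libraries.

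The cell cycle state of each clone was read from genes other than these 6. The deviation of a gene in a clone is its log2(CPM + 1) minus its mean over the clones, and the median of these deviations describes a list. In a list of 42 S phase genes these medians were -0.52, 0.38 and 0.15 in clones 1, 2 and 3. Clone 1 was lowest for all 42 genes, and all 42 passed the counting test. Ccne2, a cyclin of entry into S phase, had 107, 350 and 317 counts, and Rrm2, a subunit of ribonucleotide reductase, had 1567, 3272 and 3237. In a list of 53 G2/M genes the medians were -0.50, 0.37 and 0.15, and clone 1 was lowest for 52 genes, of which 51 passed the counting test. Aurkb, the kinase of the chromosomal passenger complex, had 289, 687 and 593 counts, and Mki67, a marker of dividing cells, had 3270, 5113 and 5042. The exception was Psrc1, named after its values were seen, with 2115, 1590 and 1918 counts and clone 1 highest (adjusted p = 1.81e-07 in the counting test). Over all 11751 genes whose mean reached 1 CPM, the medians were within 0.01 of 0 in every clone, and clone 1 was lowest for 39.7% and highest for 37.5% of them. The difference rested on clone 1, since without it the list medians of clones 2 and 3 were 0.22 apart in both lists.

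Genes of cell cycle arrest showed another order of clones. In a list of 8 of them the medians were 0.23, -0.26 and 0.03. Of the 8, 7 passed the counting test, and 5 of these were highest in clone 1. Over all genes tested, 62.5% passed and 23.8% passed with clone 1 highest. Cdkn2c passed with clone 1 lowest (169, 243 and 234 counts), and Ccng1 passed with clone 3 highest (9575, 8106 and 11698). Cdkn1b was also lowest in clone 1 and did not pass (460, 437 and 538 counts, adjusted p = 0.110). Cdkn2a, which encodes the inhibitors p16 and p19, had 2349, 834 and 1118 counts and also varied more than a typical gene (adjusted p = 0.0153 in the overdispersed test). The same held for Gadd45a, a gene of the stress response, with 734, 278 and 346 counts (adjusted p = 0.0325). The adjacent inhibitor gene Cdkn2b had 1708, 729 and 1033 counts. The span of these medians, 0.49 with all clones, was 0.20 without clone 1 and 0.19 without clone 2. In clone 1, then, cell cycle genes were low and 5 of the 8 arrest genes had their highest level, as did Pttg1 and Hdac8.

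Set beside these lists, the genes of the group fell on different sides. In clone 1, Esco2 deviated by -0.62, Cdca5 by -0.51 and Espl1 by -0.45 from the mean of the clones, near the medians of both lists. In clone 2 they deviated by 0.44, 0.42 and 0.32, and in clone 3 by 0.18, 0.09 and 0.13. Among the 53 G2/M genes, 14 were below Esco2 in clone 1, 26 were below Cdca5 and 34 were below Espl1, so all of these genes lay inside the spread of the list. Esco1 deviated by -0.19, 0.03 and 0.16 and stood above 50 of the 53 G2/M genes and 41 of the 42 S phase genes in clone 1. Hdac8, with 0.15, 0.00 and -0.15, and Pttg1, with 0.24, -0.15 and -0.08, stood above all 53 and all 42 in clone 1.

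**Figure D2:**
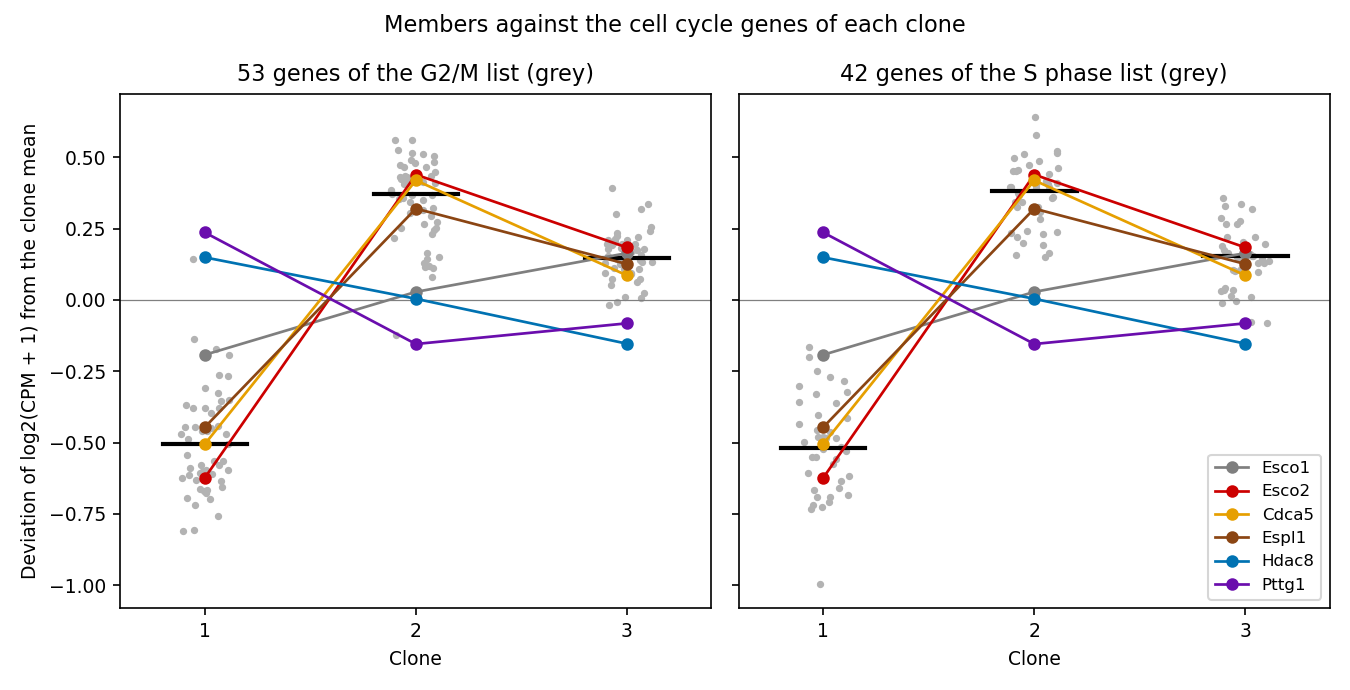
Deviation on the log2(CPM + 1) scale from the gene's mean (vertical axis) in each clone (horizontal axis) for the 6 genes (coloured points, joined only to show which belong to 1 gene) over the 53 G2/M genes (left) and 42 S phase genes (right) in grey, with the list medians as black bars. Esco2, Cdca5 and Espl1 stayed close to the black bars, and Hdac8 and Pttg1 lay above every grey point of clone 1.

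Subtracting the median of the G2/M list in each clone narrowed the range of 3 genes and widened that of the other 3. For Esco2 the range between clones went from 1.06 to 0.19, for Cdca5 from 0.92 to 0.11 and for Espl1 from 0.77 to 0.11. For Esco1 it went from 0.36 to 0.65, for Hdac8 from 0.30 to 1.02 and for Pttg1 from 0.39 to 1.27. With the S phase median in its place the ranges were 0.16, 0.10 and 0.14 for Esco2, Cdca5 and Espl1 and 0.68, 1.05 and 1.29 for Esco1, Hdac8 and Pttg1. The lists of S phase and G2/M genes gave nearly the same medians in these clones, so they do not separate an S phase pattern from a mitotic one. For comparison, the G2/M median narrowed the range of 11.5% of these 11751 genes, and the S phase median that of 10.9%. The median range of all these genes went from 0.278 to 0.895 with the G2/M median and to 0.922 with the S phase median. Widening is thus the usual outcome of the subtraction and not a trait of Esco1, Hdac8 and Pttg1. A remaining range at or under that of Esco2 (0.19 with the G2/M median) was found for 1.53% of the 11751 genes and for 19 of the 53 G2/M genes. These are 3 points per gene, and the values are a description. The widening of Hdac8 rested on clone 1, since with clones 2 and 3 only its range went from 0.16 to 0.058 on subtraction of the G2/M median. That of Pttg1 still grew, from 0.07 to 0.29, but stayed far below 1.27. In those clones the ranges after subtraction were 0.040 for Esco2, 0.12 for Cdca5, 0.021 for Espl1 and 0.35 for Esco1. The widening of Esco1 rested on clone 2, since without it the range went from 0.36 to 0.34 with the G2/M median and to 0.32 with the S phase median.

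**Figure D3:**
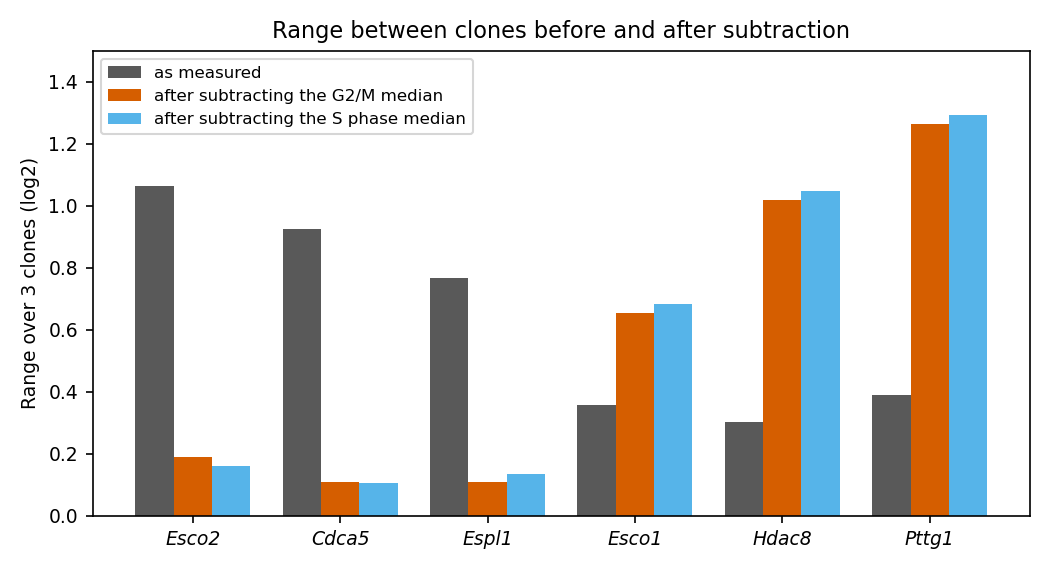
Range over the 3 clones in log2 units (vertical axis, from 0) for each gene as measured (grey), after subtraction of the G2/M median (orange) and after subtraction of the S phase median (blue). The bars of Esco2, Cdca5 and Espl1 dropped to 0.19 or less, and those of Esco1, Hdac8 and Pttg1 grew.

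The genes nearest in pattern were sought among the 9743 genes whose mean reached 5 CPM, by the distance between deviations over the 3 clones. Nearest to Esco2 were Atad5, which encodes an unloader of the replication clamp PCNA (175, 355 and 328 counts), and Dlgap5, which encodes a spindle protein (491, 951 and 898). Cdca5 was nearest to Cdk1, the kinase of mitotic entry (1231, 2154 and 1882 counts), and to Pkmyt1, which encodes an inhibitor of that kinase (414, 719 and 640). Espl1 was nearest to Dusp7, a phosphatase gene (451, 712 and 691), and to Topbp1, a gene of replication and checkpoint control (1673, 2590 and 2568). Only 0.729%, 0.636% and 1.13% of the genes lay within a distance of 0.1 of Esco2, Cdca5 and Espl1. For the genes with less spread, close patterns were common, with 5.87% of genes within 0.1 of Esco1, 4.97% of Hdac8 and 6.15% of Pttg1. The nearest were Ddx3x and Dennd2c for Esco1, Lrrc4c and Chid1 for Hdac8, and Lrif1 and Cd2bp2 for Pttg1. Within the group, Cdca5 and Espl1 were 0.122 apart, Esco2 and Cdca5 0.155, and Pttg1 and Hdac8 0.194.

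Partners of these genes were read from lists that partly repeat the cell cycle lists. As a measure for the counts that follow, 62.5% of all genes tested passed the counting test. Those called with clone 1 lowest were 27.1% of all genes tested, and those called with clone 1 highest were 23.8%. Of 11 genes of anaphase control, all were lowest in clone 1 and 10 passed the counting test, with medians of -0.58, 0.42 and 0.17. Cdc20, the APC/C activator of anaphase, had 1232, 2289 and 2150 counts, and Bub1b, of the spindle checkpoint, had 598, 1350 and 1192. Cdc20, Cdk1, Bub1 and Ube2c are in the G2/M list as well, so the lists are not independent. Fzr1, the APC/C activator of mitotic exit and G1, was the 1 that did not pass, with 1137, 1105 and 1203 counts (adjusted p = 0.328). The 14 subunits of the APC/C itself had medians of -0.01, 0.01 and 0.03. Of them, 9 passed the counting test, near the share of all genes tested, 5 with clone 1 lowest and 0 with clone 1 highest. Among 11 genes of replication partners of ESCO2, 10 were called with clone 1 lowest, among them Mcm5 with 840, 1672 and 1503 counts. Mcm2, Mcm4, Mcm5, Mcm6 and Pcna of this list are also S phase genes counted above. Cul4a, a scaffold of a ubiquitin ligase, had 2914, 2595 and 2905 counts and did not pass (adjusted p = 0.745).

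The substrate of the cycle, cohesin, moved less than Esco2, Cdca5 and Espl1. The 10 genes of the cohesin core and its regulators had medians of -0.20, 0.07 and 0.13. All 10 passed the counting test, 9 with clone 1 lowest, against 62.5% and 27.1% of all genes tested. Mau2, of the cohesin loader, was highest in clone 1 with 1465, 1213 and 1284 counts. Esco1 lay close to these medians. Per 100 of Smc3, its substrate, Esco1 stood at 14.7, 13.7 and 14.8 in clones 1, 2 and 3, per kb of annotated exon (14.4 ± 0.599, SD, n = 3). Esco2 stood at 4.53, 8.76 and 6.93 per 100 of Smc3. These ratios depend on the length used, and per kb of the main coding transcript Esco2 stood at 9.06, 17.5 and 13.9 (13.5 ± 4.24, SD, n = 3) and Esco1 at 14.1 ± 0.588. Cdca5 per 100 of Wapl, whose product Sororin opposes, was 30.7, 57.2 and 40.7 (42.9 ± 13.4, SD, n = 3), and Espl1 per 100 of Rad21, whose product separase cuts, was 17.6 ± 1.42. Hdac8 per 100 of Smc3 was 14.9, 10.4 and 8.88, and 32.6, 22.7 and 19.4 on the transcript scale. The choice of length cannot change the order of clones. This ratio was highest in clone 1, where Esco2 per Smc3 was lowest. Smc3 itself was lowest in clone 1, and Hdac8 did not pass the counting test (adjusted p = 0.143).

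Levels of different genes can be set in order only per length. Per kb of annotated exon, Pttg1 had 5.33 ± 0.867 CPM per kb, Espl1 4.30 ± 1.14, Cdca5 3.94 ± 1.35, Esco1 1.65 ± 0.226, Hdac8 1.28 ± 0.155 and Esco2 0.795 ± 0.327 (SD, n = 3 clones). The ranges of the clones did not overlap between Cdca5 and Esco1 or between Hdac8 and Esco2. The neighbours Pttg1 and Espl1, Espl1 and Cdca5, and Esco1 and Hdac8 did not differ beyond their spread, although Espl1 was above Cdca5 in all 3 clones. The order depended on the length used. Per kb of the main coding transcript (the one with the longest open reading frame), Pttg1 had 11.2 ± 1.83 and Espl1 5.65 ± 1.49 CPM per kb, and their ranges were separate. Cdca5 followed with 4.14 ± 1.42, Hdac8 with 3.19 ± 0.387, Esco1 with 1.85 ± 0.254 and Esco2 with 1.81 ± 0.745. On this scale Hdac8 and Esco1 changed places, with ranges that did not overlap, and the remaining neighbours did not differ beyond their spread.

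**Figure D4:**
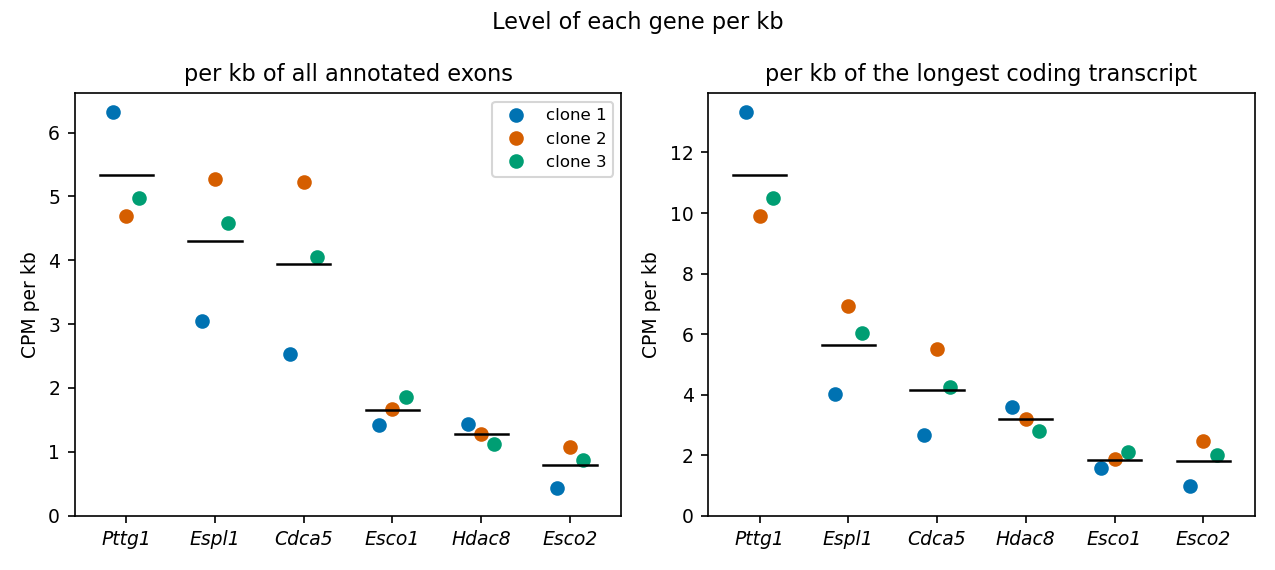
CPM per kb (vertical axes, linear, from 0, different scales) of each gene in clones 1, 2 and 3 (coloured points) with the mean (line), divided by the length of all annotated exons (left) or of the main coding transcript (right). Genes stand in the same order as their means in each panel, and Hdac8 and Esco1 change places between the panels.

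The balance within pairs of these genes was also compared between clones. Of the counts of Esco1 and Esco2 together, the Esco2 share was 28.7% (95% Wilson interval 23.4 to 34.6) in clone 1. The other clones had 45.5% (clone 2, 40.4 to 50.7) and 38.0% (clone 3, 33.3 to 42.9), and the mean share was 37.4% ± 8.41 (SD, n = 3). The intervals, which cover counting error only, did not overlap between clones 1 and 2. Of the counts of Pttg1 and Espl1 together, the Pttg1 share was 32.1% (29.3 to 35.1) in clone 1. The other clones had 16.9% (clone 2, 15.0 to 19.1) and 19.8% (clone 3, 17.7 to 22.1), and the mean share was 23.0% ± 8.07 (SD, n = 3). The interval of clone 1 was apart from those of the other clones. Per kb of exon the Pttg1 share was 67.4%, 47.2% and 52.0%, below 50% in clone 2 only. Per kb of the main coding transcript the share was 76.9%, 58.9% and 63.5%, with a mean of 66.4% ± 9.35 (SD, n = 3), so that on this scale Pttg1 was above Espl1 in clone 2 as well. The balance of Cdca5 and Esco2 differed less, with Cdca5 at 65.0% (58.3 to 71.2), 60.9% (56.1 to 65.5) and 59.7% (54.6 to 64.6) of the counts of both, and these intervals overlapped. Hdac8 made up 49.0% (43.8 to 54.2), 41.9% (36.7 to 47.2) and 36.3% (31.6 to 41.3) of the counts of Hdac8 and Esco1. Here the intervals of clones 1 and 3 did not overlap, although Hdac8 alone did not pass the counting test.

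**Figure D5:**
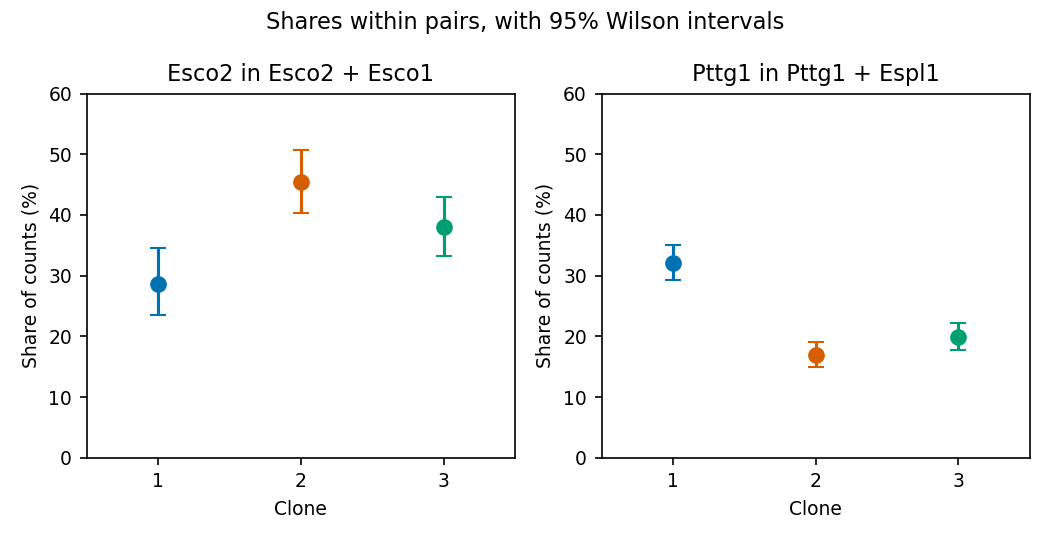
Share of counts in percent (vertical axes, from 0 to 60) of Esco2 within Esco2 and Esco1 (left) and of Pttg1 within Pttg1 and Espl1 (right) in each clone, with 95% Wilson intervals as bars. The Esco2 share was lowest and the Pttg1 share highest in clone 1.

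Markers of other cell types were read in the same libraries. All 9 fibroblast markers were present, led by Col1a1 at 27713 CPM. All 11 macrophage markers were highest in clone 2, with sums of 398, 1871 and 330 CPM in clones 1, 2 and 3, and all 11 varied more than a typical gene. Clone 2 also had the highest Esco2, Cdca5 and Espl1, and the part of macrophage RNA in this was not tested. Without clone 2, the ranges were 0.81 for Esco2, 0.59 for Cdca5 and 0.57 for Espl1. All 5 genes that passed the counting test still passed it, as did 5627 of all 12413 genes then tested. Of the 6 epithelial markers only Krt18 reached 1 CPM, with sums of 3.42 to 7.09 CPM, and Epcam had 1 to 5 counts. Of the 6 endothelial markers only Kdr and Emcn reached it, and Emcn, with 307, 4 and 242 counts, was nearly missing from clone 2. For Esco1, which lies on chromosome 18 (10566507 to 10610352, minus strand), 12.9% of the 86-nt stretches of its transcript matched the gene Gm7054 within 2 mismatches, so its counts are less certain. For the other 5 genes no stretch of the main coding transcript matched another gene. Exon bases outside that transcript were not searched for any of the 6 genes. No exon of the 6 genes overlapped an exon of another gene.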

How the data were processed

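RNA-seq of polyA+ RNA was done in 3 WT MEF clones of 1 condition. The authors aligned 86-nt reads with TopHat2 2.0.0 (using SAMtools 0.1.16 together with Bowtie 0.12.7), with up to 2 mismatches and up to 5 hits per read, and deposited raw counts per gene from HTSeq, without normalization. The methods name mm10, whereas the submitters' processing notes name mm9. The HTSeq version, annotation and strand setting are not given in the sources used here.

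Counts were scaled to CPM with TMM factors of edgeR 4.0.16 (R 4.3.3), and a pseudocount of 1 was added before log2. A count of 0 allows up to 3 counts, 0.119 to 0.133 CPM. Genes whose counts reached 10 in every clone were tested with a Pearson chi-square test (2 degrees of freedom) against the scaled library sizes, with counting variance or with the edgeR common dispersion, and were called at a Benjamini-Hochberg adjusted p under 0.05. Both tests were tested on simulated data, and the interval code was not. Reads carry no molecular identifiers, so that intervals cover counting error only. Nothing in the labels says that the clones came from separate embryos, and p-values measure only the spread between these libraries.

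Positions and lengths came from GENCODE M21 (GRCm38) and promoters from RefSeq (GRCm38.p6). The members and lists were chosen with earlier results of these data known. S phase and G2/M lists were drawn from standard sets and need not hold every gene of them, and Sgo2a of the anaphase list was not found in the table. Named were the 6 genes, the cohesin genes and class I deacetylases, from each other list genes among the 3 with the highest mean and the 3 with the largest range, for each of the 6 the 2 genes nearest in pattern, and exceptions to a count. Alternatives were scaling by total counts or by size factors of DESeq2 1.42.0, other minimum counts and pseudocounts, trended dispersion, length of the main coding transcript and leaving out each clone. Scripts ran in Python 3.11.15 (scipy 1.17.1, pandas 2.3.3, numpy 2.4.6).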

Additional observations from a re-analysis of the deposited data

How the results depend on the processing

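With 1 library per clone, the depth limits Esco2 and Hdac8 most, which had 72 to 172 counts. Of 284 alternatives over 41 results, 252 kept the side of the threshold or the value within the limits set. Of 161 alternatives other than leaving out a clone, 152 did so. For levels, shares, spans and ranges after subtraction, the limit was the SD over the clones, which is wide with 3 clones. Of the 284, 28 moved beyond the limits and 4 no longer passed the counting test. With at least 50 counts in every clone, the overdispersed test called 183 genes in place of 315. With a pseudocount of 0.1, Esco2 kept a range of 0.38 after subtraction of the G2/M median and 0.31 after that of the S phase median, still narrower than as measured. With the length of the main coding transcript, Esco2 had 1.81, Hdac8 3.19, Espl1 5.65 and Pttg1 11.2 CPM per kb, the Esco2 share was 48.0% and the Pttg1 share 66.4%.

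Leaving out 1 clone at a time changed more. The counting test then called 3893 to 6531 genes and 2 to 5 of the 6 members, with the lowest of each without clone 1. The overdispersed test called 9 to 247 genes, with the fewest when clone 2 was left out. The spans of the list medians were 0.22 to 0.90 (S phase), 0.22 to 0.91 (G2/M) and 0.19 to 0.49 (arrest), with the lowest S phase and G2/M spans without clone 1. The range between clones was 0.14 to 0.36 for Esco1, 0.26 to 1.06 for Esco2 and 0.073 to 0.39 for Pttg1. After subtraction of the G2/M median, ranges were 0.040 to 0.15 for Esco2, 0.013 to 0.12 for Cdca5, 0.021 to 0.14 for Espl1, 0.058 to 1.05 for Hdac8 and 0.29 to 1.3 for Pttg1. After that of the S phase median, they were 0.037 to 0.16, 0.021 to 0.11, 0.024 to 0.14, 0.061 to 1.05 and 0.29 to 1.29, and 0.32 to 0.68 for Esco1. The ranges of Hdac8 and Pttg1 after subtraction were lowest without clone 1. No paired analysis was possible because the samples form 1 group.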
